A study of Mus musculus with 4 samples.

Results

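Histone acetyltransferases and the subunits of their complexes were examined in liver RNA of mice with a propionyl-CoA carboxylase defect. The set was 34 genes of the 55487 gene identifiers counted, chosen by name as writers of histone acylation. It covers 12 catalytic proteins and the scaffold, reader and accessory subunits that direct them. Polyadenylated RNA was sequenced in 4 liver libraries, 2 of WT and 2 of PA mice, all female, 11 weeks old, on the FVB background and fed standard chow. The labels describe the PA mice as hypomorphic Pcca-/- (A138T), that is, with a weakly working alpha subunit of propionyl-CoA carboxylase, the enzyme that removes propionyl-CoA. The labels do not say where the A138T allele lies or what drives it. The replicates are given as biological, without saying whether a library holds 1 animal.

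Histone acetyltransferases move an acyl group from coenzyme A to lysines of histone tails, and several of them accept propionyl-CoA and other short acyl-CoAs beside acetyl-CoA. The same enzyme can sit in different complexes. Kat8, also called MOF, acetylates lysine on the tail of histone H4 and works in the MSL complex along gene bodies and in the NSL complex at promoters. Kat7 (HBO1), Kat6a (MOZ) and Kat6b (MORF) are held by scaffolds of the BRPF or JADE families, Kat5 (TIP60) works in a large remodelling complex with Ep400 and Trrap, and Ep300 (p300) and Crebbp (CBP) are broad coactivators. In liver these proteins serve transcription of metabolic genes, and Kat2a (GCN5) also acetylates non-histone regulators of gluconeogenesis.

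Gene counts summed to between 25575016 and 30110400 per library, so that 3 counts are worth 0.0996 to 0.117 CPM (counts scaled to library size). Pcca was read at 60.3 and 58.9 CPM in WT and at 34.2 and 47.4 CPM in PA (log2 fold change -0.55, edgeR adjusted p = 0.398), a check limited by the fact that gene counts do not separate a mutant from a normal transcript. Of the 6 hepatocyte markers, Alb was at 130577 and 149441 CPM in WT and at 120638 and 147200 CPM in PA, 3 were higher in PA without overlap (Cps1 with a ratio of 2.11) and 2 were lower (Fgb 0.578, Serpina1c 0.599). None of the 6 was called by edgeR. For comparison with the marker counts, 21.9% of all 14411 tested genes were lower and 21.3% higher in PA without overlap. Of 7 Kupffer cell markers 6 did not overlap between the groups, with the list at 495 to 573 CPM in WT and 253 to 352 CPM in PA, and 5 of 5 red blood cell markers did not overlap, at 47.5 to 88.5 and 11.9 to 16.8 CPM. The globins Hbb-bs and Hbb-bt were called (edgeR adjusted p = 0.0256 and 0.0302). All 4 B cell markers were below 0 (median log2 fold change -1.15), as were 49.4% of all tested genes. They were read at low levels, summing to 3.72 and 5.03 CPM in WT and to 1.69 and 2.22 CPM in PA. Of the 4, 3 were lower without overlap and 0 were called by edgeR. Cholangiocyte markers were mixed, with 3 of 5 higher and 1 lower in PA without overlap (median 0.65). The lower one, Spp1, was the most abundant, at 30.5 and 45.3 CPM in WT and at 24.2 and 26.9 CPM in PA. The cholangiocyte list summed to 34.3 and 48.2 CPM in WT and to 29.8 and 32.5 CPM in PA. No defining marker of any list was at 0 in every library. The share of mitochondrially encoded genes was 6.9 and 7.38% in WT but 13.6% in the first PA library and 8.98% in the second. The part of the cell type markers in the results below was not tested, and a fit without the mitochondrial genes is given with the members' counts. In bulk tissue, fewer cells of a type and less RNA per cell cannot be told apart.

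None of the 33 tested members passed an adjusted p of 0.05 (quasi-likelihood test of edgeR with Benjamini-Hochberg adjustment over all 14411 tested genes), where 0.812% of all tested genes passed. At an unadjusted p under 0.05 there were 3 members, or 9.09% of those tested against 11.8% of all genes. Of the 3, Hat1 and Kat6b were lower in PA, where 5.93% of all genes lay, and Jade2 was higher, where 5.88% lay. The member left out of the test was Ing4, with at most 8 counts in a library. DESeq2 called 1 member, Hat1, among 442 genes called in all, and limma-voom called 0 members among 87 genes. At 2 libraries a group, missing the threshold does not show that a gene kept its level. The 95% interval of the log2 fold change lay within 1 on either side of 0 for 28 of the 33, the exceptions being Hat1, Kat6b, Jade1, Jade2 and Ing5.

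**Figure D1:**
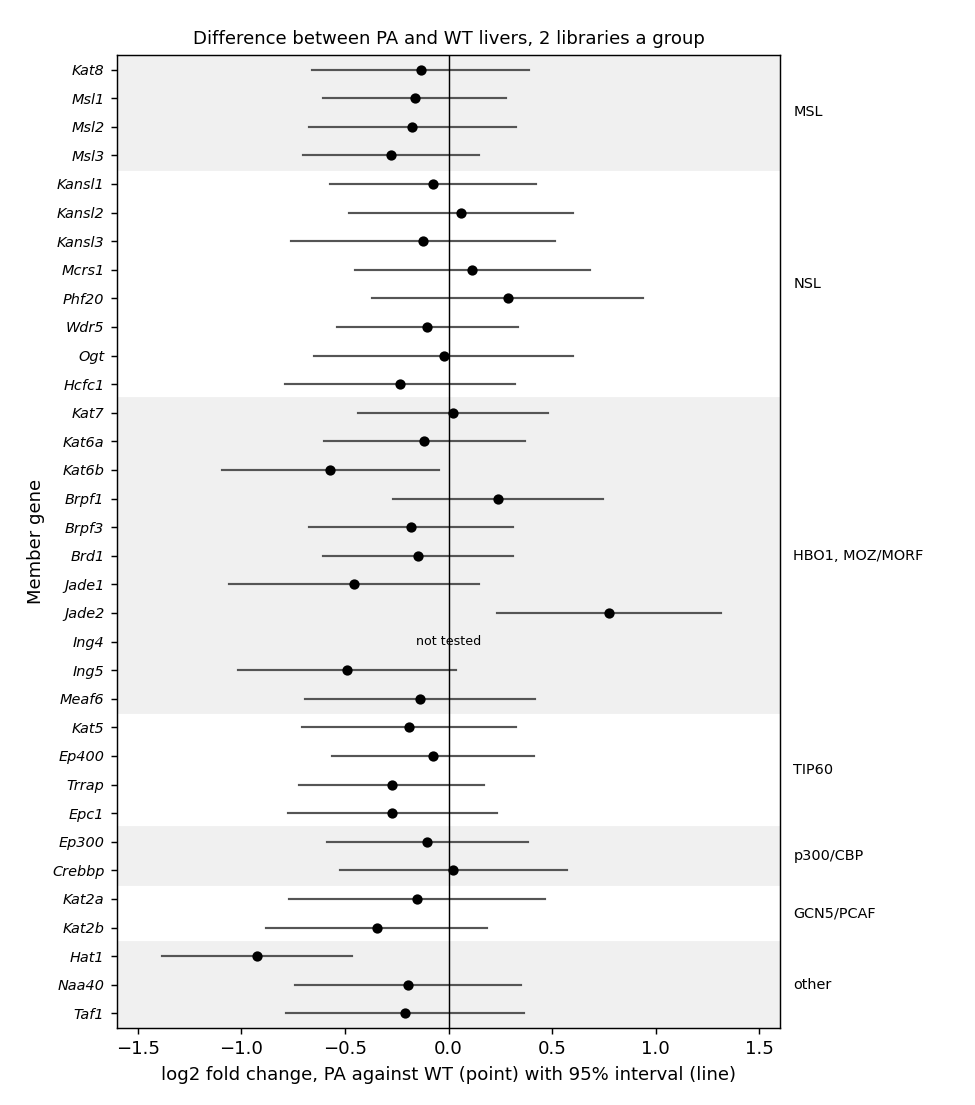
Log2 fold change of PA against WT for each member (points, x axis) with its 95% interval (lines), ordered by complex on the y axis; Ing4 was not tested. Among the 33 tested members, the intervals of Hat1, Kat6b and Jade2 leave out 0, and 26 of 33 points lie below 0.

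Most members had slightly lower values in PA. A log2 fold change below 0 was found in 26 of 33 members, or 78.8%, against 49.4% of all tested genes. The median over members was -0.15, a ratio of 0.903, and the median over all tested genes was 0.00. Over the 7624 protein-coding genes with mean CPM in the range of the members (4.47 to 89.8 CPM) the median was 0.01 and 49.1% were below 0. CPM of the groups did not overlap in 13 members that were lower in PA, 39.4% of those tested against 21.9% of all genes. They did not overlap in 3 that were higher, 9.09% against 21.3% of all genes. Summed over the 34 members, the libraries held 628 and 665 CPM in WT and 559 and 582 CPM in PA, 647 ± 26.2 against 571 ± 16.6 (SD, n = 2 each). The exact two-sided permutation test gave p = 0.333, the smallest that 2 against 2 allows. In PA replicate 2 too the summed CPM (582) lay below both WT libraries. The median and the count below 0, however, rested largely on PA replicate 1. Without it 19 of 33 members were below 0 and the median was -0.04, and without PA replicate 2 the values were 27 of 33 and -0.21. With library sizes in place of TMM scaling 28 of 33 members were below 0 and the median was -0.19, while the median of all genes was -0.04. In a fit without mitochondrially encoded genes 26 of 33 members were below 0, the median was -0.14 and 0 members were called by edgeR, with 3 at an unadjusted p under 0.05.

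**Figure D2:**
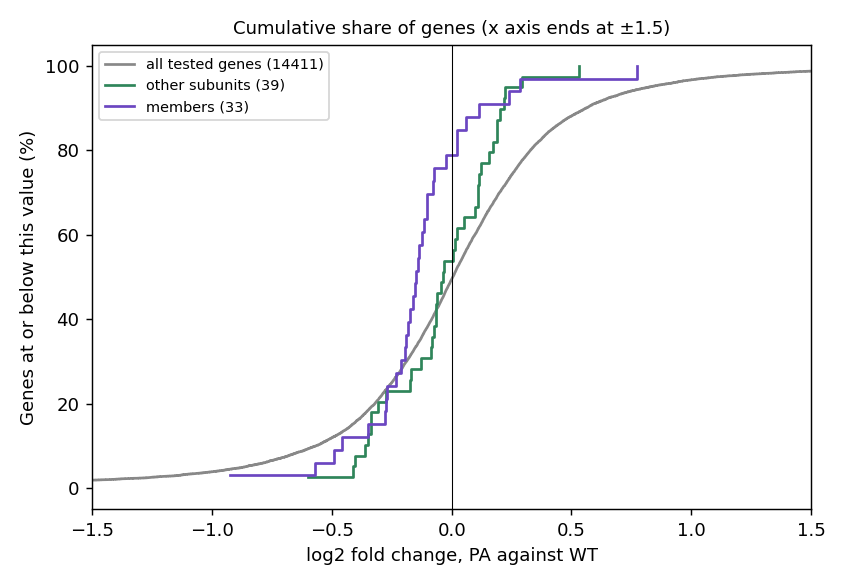
Cumulative share of genes (y axis, %) at or below each log2 fold change of PA against WT (x axis) for the 33 tested members, 39 other subunits of the same complexes and all 14411 tested genes. The curve of the members crosses 0 at 78.8%, that of the other subunits at 53.8% and that of all genes at 49.4%.

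The promoters of the set share a composition that the choice of genes did not use. RefSeq promoter windows (GRCm38.p6, 250 bases before to 50 after the start, the first window listed for each gene) were held for 31 of the 34 members. All 31 had at least 10 CpG dinucleotides, with a median of 26 and a range of 11 to 49, against a median of 13 and 57.2% with at least 10 over 17492 protein-coding promoters. Each motif was searched on both strands. The motif GGGCGG (GC box) was in 25 of 31 windows, 80.6% against 46.3% of protein-coding and 35.9% of all 27025 promoters. CGGAAG (the core read by ETS factors) was in 48.4% against 21.5% and 17.2%, and CCAAT (read by NF-Y) in 35.5% against 39% and 37.9%. TTCCCGC (an E2F core, which can overlap a GC box by its last bases) was in 1 of 31 windows, 3.23% against 5.99% and 4.66%. TATAAA, a core promoter element, was in 0 of 31 against 13.3% and 14.2%. These are matches of letters and show no binding. The promoters compared were not limited to genes tested in these libraries, so a composition particular to these complexes is not shown. Windows are shown for Kat8 (chr7:127912267-127912566), the enzyme of the histone H4 lysine in the study's title, and for the 2 catalytic genes of smallest p, Hat1 (chr2:71389010-71389309) and Kat6b (chr14:21499520-21499819). They run 5′ to 3′ on the plus strand, where all 3 genes lie, with every match to the 5 motifs in capitals, overlapping GC boxes included.
Kat8: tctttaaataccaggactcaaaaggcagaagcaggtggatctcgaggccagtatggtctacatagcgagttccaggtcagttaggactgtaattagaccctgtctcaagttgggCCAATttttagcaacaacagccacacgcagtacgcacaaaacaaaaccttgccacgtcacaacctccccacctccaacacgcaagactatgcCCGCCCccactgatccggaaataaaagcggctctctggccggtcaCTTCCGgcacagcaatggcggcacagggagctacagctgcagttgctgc
Hat1: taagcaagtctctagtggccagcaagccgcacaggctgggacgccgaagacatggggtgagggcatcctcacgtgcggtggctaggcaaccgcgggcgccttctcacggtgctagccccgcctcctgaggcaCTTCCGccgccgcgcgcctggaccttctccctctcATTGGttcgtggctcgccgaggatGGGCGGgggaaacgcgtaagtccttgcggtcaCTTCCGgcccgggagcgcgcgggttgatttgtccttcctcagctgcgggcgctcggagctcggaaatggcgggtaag
Kat6b: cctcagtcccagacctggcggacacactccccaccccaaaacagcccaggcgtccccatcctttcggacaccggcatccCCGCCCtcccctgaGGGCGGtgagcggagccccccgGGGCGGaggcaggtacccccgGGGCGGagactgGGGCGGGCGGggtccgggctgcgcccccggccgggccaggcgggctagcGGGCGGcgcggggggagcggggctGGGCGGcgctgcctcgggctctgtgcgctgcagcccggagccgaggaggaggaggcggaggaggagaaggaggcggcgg
The window of Kat6b holds 8 GC boxes and 32 CpG and no other motif searched. It lies inside the annotated span of the gene, which begins upstream at 21481434. The window of Hat1 also lies inside the span of its gene, which begins at 71388958. Which starts liver uses was not tested. The window of Hat1 holds 32 CpG, 1 GC box, 1 NF-Y match and 2 ETS cores, and that of Kat8 holds 12 CpG and 1 match each to those 3 motifs.

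Kat8, the acetyltransferase MOF, showed no difference larger than the spread between libraries. Kat8 (ENSMUSG00000030801, chromosome 7, 127912516 to 127925837, plus strand of GRCm38) stood at 15.1 and 13.5 CPM in WT and at 11.3 and 14.8 CPM in PA. PA replicate 2 lay between the WT libraries. The log2 fold change of -0.13 (SE 0.22, 95% interval -0.66 to 0.39) did not pass (edgeR adjusted p = 0.874). Leaving out the first PA library gave 0.05, leaving out the second gave -0.35, and the expected counts of RSEM gave -0.00131. The partners in the MSL complex had small negative log2 fold changes. Msl3, a chromodomain subunit, was at 39.1 and 39.4 CPM in WT and at 32.6 and 32.1 CPM in PA. The groups did not overlap and the libraries of each lay close together, yet the log2 fold change of -0.28 (SE 0.18) did not pass (edgeR adjusted p = 0.617). Msl1, the scaffold, was at 31.8 and 28.5 CPM in WT and at 27.2 and 26.7 CPM in PA, also without overlap. Msl2, a ubiquitin ligase subunit, was at 17.0 and 20.6 CPM in WT and at 15.2 and 18.1 CPM in PA, with overlap. All 4 genes of the complex were below 0 on the log2 scale, with a median of -0.17 that was -0.11 without PA replicate 1, where 3 of 4 were below 0.

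The NSL complex, in which Kat8 sits with Kansl1, Kansl2 and Kansl3, was the group of subunits closest to 0 apart from p300 and CBP. Of its 9 genes, Kat8 counted again, 6 were below 0 and 3 above, with a median of -0.07. That median turned to 0.05 without PA replicate 1 and to 0.03 without WT replicate 2. Wdr5, a WD-repeat protein shared with the histone H3 methyltransferase complexes, was at 29.4 and 30.9 CPM in WT and at 29.0 and 27.2 CPM in PA. Mcrs1 was at 4.499 and 4.08 CPM in WT and at 4.51 and 4.78 CPM in PA. These were the only members of the complex whose groups did not overlap, Wdr5 lower and Mcrs1 higher in PA, and the nearest libraries almost touched. Ogt, which adds N-acetylglucosamine to proteins and reports on nutrient supply, differed more between the PA libraries than between genotypes. It was at 59.0 and 55.1 CPM in WT and in PA at 42.5 CPM in the first library and 69.8 in the second. Hcfc1, the host cell factor that Ogt cleaves, followed the same order in PA, at 25.9 and 23.8 CPM in WT and at 17.2 and 25.0 CPM in PA. Kansl3 ran the other way, at 25.0 and 32.4 CPM in WT and at 32.3 and 20.4 CPM in PA. Phf20, a methyl-lysine reader, was at 7.14 and 11.5 CPM in WT and at 10.3 and 12.4 CPM in PA. The scaffold Kansl1 was at 14.6 and 16.7 CPM in WT and at 13.3 and 16.3 CPM in PA, and Kansl2 at 10.8 and 14.5 CPM in WT and at 14.1 and 12.2 CPM in PA, both with overlap.

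The complexes of HBO1, MOZ and MORF held the members that stood farthest apart after Hat1. Kat6b (ENSMUSG00000021767, chromosome 14, 21481434 to 21672478, plus strand) was at 7.40 and 7.97 CPM in WT and at 5.03 and 5.32 CPM in PA. Both PA libraries lay below both WT libraries. Its log2 fold change was -0.57 (SE 0.22, 95% interval -1.10 to -0.05, unadjusted p = 0.0368, edgeR adjusted p = 0.374). It stayed between -0.63 and -0.51 over the 13 alternatives and was called in 0 of them. Its paralog Kat6a was at 15.3 and 15.8 CPM in WT and at 12.8 and 15.8 CPM in PA, and Kat7 was at 14.7 and 13.9 CPM in WT and at 13.9 and 15.2 CPM in PA. Neither separated the groups, with log2 fold changes of -0.12 and 0.02 (edgeR adjusted p = 0.884 and 0.981). The sign for Kat7 turned with library sizes only, without WT replicate 2 and without PA replicate 2, and that of Kat6a without PA replicate 1.

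The JADE scaffolds, which lead HBO1 to histone H4, lay on opposite sides of 0. Jade2 (ENSMUSG00000020387, chromosome 11, 51813455 to 51857653, minus strand) was at 5.999 and 4.83 CPM in WT and at 9.30 and 9.25 CPM in PA. This is the highest log2 fold change among the members, 0.77 (SE 0.23, 95% interval 0.24 to 1.31, unadjusted p = 0.0114, edgeR adjusted p = 0.239). It ranged from 0.64 to 0.93 over the alternatives and was called in 0 of them. Jade1 was at 27.0 and 37.0 CPM in WT and at 27.4 and 19.3 CPM in PA. The first PA library lay just above the first WT library, so the groups overlapped (log2 fold change of -0.46 with an SE of 0.26, edgeR adjusted p = 0.558). Leaving out one library at a time gave -0.68 (first WT), -0.20 (second WT), -0.72 (first PA) and -0.23 (second PA). Among the BRPF scaffolds, which lead the enzymes to histone H3, Brpf1 was higher in both PA libraries, at 7.76 and 7.38 CPM in WT and at 9.58 and 8.31 CPM in PA. Brd1 was lower in both, at 13.6 and 15.0 CPM in WT and at 13.0 and 12.8 CPM in PA, as was Brpf3, at 12.3 and 12.2 CPM in WT and at 11.9 and 9.76 CPM in PA.

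Both ING readers, which bind methylated histone H3, had lower values in PA. Ing5 was at 8.15 and 9.35 CPM in WT and at 6.60 and 5.86 CPM in PA, with no overlap (log2 fold change of -0.49 with an SE of 0.22, edgeR adjusted p = 0.461). Ing4 had 8 and 3 STAR counts in WT and 4 and 3 in PA. Exons of Gm44597, a transcript on the same strand, cover 34.9% of its exon bases, and the part of this overlap in the low counts was not tested. RSEM gave Ing4 389 and 346 expected counts in WT and 201 and 245 in PA, or 12.6 and 13.7 CPM against 8.18 and 8.36 CPM. In the edgeR fit of the RSEM counts its log2 fold change was -0.67 (SE 0.20, unadjusted p = 0.0121, adjusted p = 0.248). Meaf6, the small subunit shared with the TIP60 complex, was at 4.79 and 4.83 CPM in WT and at 4.40 and 4.34 CPM in PA. Of the 10 tested genes of these complexes, 7 were below 0 (8 with library sizes only), and the median was -0.14.

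**Figure D3:**
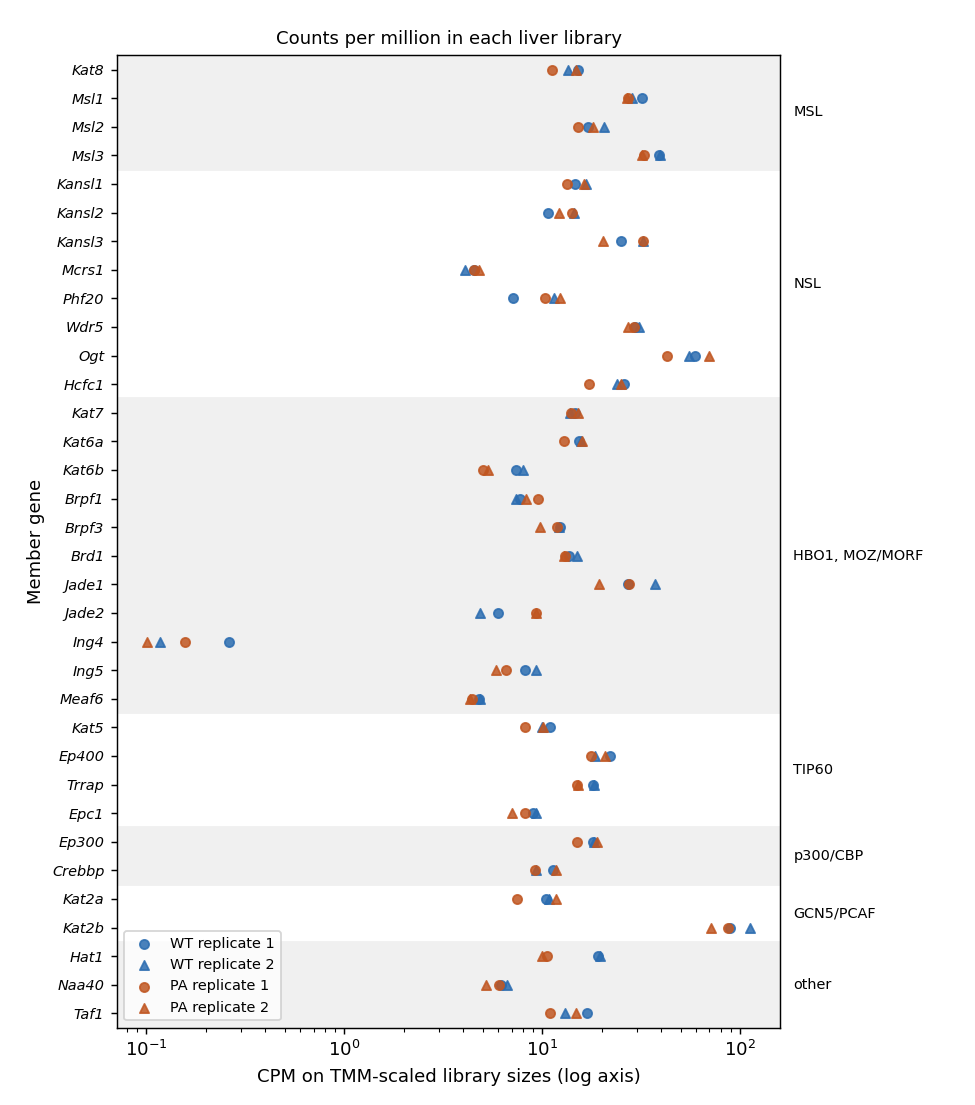
CPM on a log axis for each of the 34 members in each library (blue WT, orange PA, circles replicate 1, triangles replicate 2), ordered by complex. The PA symbols of Hat1 and Kat6b lie left of the WT symbols and those of Jade2 lie right of them, while Ing4 lies at 0.101 to 0.261 CPM.

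The TIP60 complex, which acetylates histones H4 and H2A and takes part in DNA repair, had 5 of 5 genes below 0, with a median of -0.19, and 4 of 5 without PA replicate 1 or WT replicate 1. Kat5, its enzyme, was at 10.9 and 10.01 CPM in WT and at 8.21 and 10.1 CPM in PA, with overlap (log2 fold change -0.19, edgeR adjusted p = 0.796), and the value was -0.04 without PA replicate 1. Trrap, a very large scaffold shared with the GCN5 complexes, was at 18.2 and 18.2 CPM in WT and at 15.0 and 15.1 CPM in PA. The groups were separated with little spread within each, and the difference did not pass (log2 fold change of -0.27 with an SE of 0.19, edgeR adjusted p = 0.637). Epc1, a scaffold, was at 9.03 and 9.35 CPM in WT and at 8.17 and 7.07 CPM in PA, without overlap. Ep400, the remodelling ATPase, was at 22.04 and 18.4 CPM in WT and at 17.7 and 20.7 CPM in PA, with overlap.

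The coactivators p300 and CBP had the median nearest 0 of all the groups, -0.04. Ep300 was at 18.1 and 18.3 CPM in WT and at 15.1 and 18.8 CPM in PA, and Crebbp was at 11.3 and 9.31 CPM in WT and at 9.19 and 11.8 CPM in PA. The log2 fold changes were -0.10 and 0.02, with 95% intervals of -0.59 to 0.38 and -0.52 to 0.57 (edgeR adjusted p = 0.901 and 0.985). The sign for Crebbp turned with library sizes only, without WT replicate 2 and without PA replicate 2, and that of Ep300 without PA replicate 1. The GCN5 and PCAF group, Trrap counted again, had 3 of 3 genes below 0 and a median of -0.27, the farthest from 0 of the complexes. That median was -0.16 without WT replicate 2, and 2 of 3 were below 0 without PA replicate 1. Of the GCN5 and PCAF pair, Kat2b (PCAF) was at 89.1 and 112 CPM in WT and at 86.9 and 71.2 CPM in PA. Its groups did not overlap, though the nearest libraries differed little (log2 fold change of -0.35 with an SE of 0.23, edgeR adjusted p = 0.618). Leaving out the second WT library gave -0.16, and leaving out the second PA library gave -0.21. Kat2a (GCN5) was at 10.5 and 10.8 CPM in WT and at 7.46 and 11.7 CPM in PA, so the PA libraries lay on both sides of WT (log2 fold change -0.15, edgeR adjusted p = 0.880). Leaving out the first PA library gave 0.14.

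Hat1 stood farthest apart of all members. Hat1 acetylates newly made histone H4 before it enters chromatin. The gene (ENSMUSG00000027018, chromosome 2, 71388958 to 71441622, plus strand) was at 19.2 and 19.7 CPM in WT and at 10.6 and 9.93 CPM in PA, or 19.4 ± 0.335 and 10.2 ± 0.448 CPM (SD, n = 2 each). Both PA libraries lay far below both WT libraries, outside the spread within either group. The log2 fold change was -0.92 (SE 0.19, 95% interval -1.38 to -0.47, unadjusted p = 0.00195), a ratio of 0.527. It did not pass adjustment over all genes (edgeR adjusted p = 0.108), while DESeq2 gave an adjusted p of 0.0322 and edgeR without a filter on low counts gave 0.0104. The DESeq2 and unfiltered fits called 442 and 902 genes, against 117 in the main fit. Over the 13 alternatives the log2 fold change ran from -0.97 to -0.88 and the adjusted p from 0.0104 to 0.401. Of the related histone-binding proteins, Rbbp7 was at 54.1 and 61.9 CPM in WT and at 55.2 and 71.1 CPM in PA, with overlap. Rbbp4 was at 118.5 and 104.8 CPM in WT and at 80.6 and 87.5 CPM in PA, without overlap (log2 fold change -0.41, edgeR adjusted p = 0.5001).

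Markers of proliferating cells were read beside Hat1, since new histones are made mainly when DNA is copied. The list of 6 summed to 17.1 and 11.9 CPM in WT and to 7.58 and 15.2 CPM in PA, so the sums overlapped. Cdk1 was at 2.97 and 2.95 CPM in WT and at 1.14 and 0.572 CPM in PA, and Top2a at 2.35 and 1.45 CPM and at 0.353 and 0.572 CPM (edgeR adjusted p = 0.121 and 0.124). Mki67 was at 5.84 and 2.55 CPM in WT and at 0.471 and 6.63 CPM in PA. Mcm2 was higher in PA, at 3.29 and 2.79 CPM in WT and at 4.40 and 5.08 CPM in PA. Of the 5 tested, 2 were lower and 1 higher in PA without overlap, and 0 were called by edgeR. Over all tested genes 21.9% were lower and 21.3% higher without overlap. The part of dividing cells in the Hat1 result was not tested.

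Naa40 and Taf1 complete the catalytic genes. Naa40, which acetylates the amino terminus of histones H4 and H2A, was at 6.23 and 6.64 CPM in WT and at 6.05 and 5.18 CPM in PA (log2 fold change -0.20, edgeR adjusted p = 0.802). Taf1, the largest subunit of TFIID, was at 16.8 and 13.0 CPM in WT and at 11.0 and 14.8 CPM in PA (log2 fold change -0.21, edgeR adjusted p = 0.799), and leaving out the first library of either group moved it to -0.01 (PA) or -0.02 (WT). Over the 12 catalytic genes, 10 were below 0 and the median was -0.17. All 12 were below 0 with library sizes only, and without PA replicate 1 the count was 6 of 12 and the median 0.01.

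Levels were compared between members in TPM, which accounts for transcript length and was taken from the RSEM files. Kat2b was the most abundant, at 24.65 and 28.98 TPM in WT, above the range of every other member. Msl3 followed at 20.4 and 19.1 TPM, then Msl1 at 19.1 and 13.8 TPM, Ogt at 16.1 and 13.5 TPM and Hat1 at 14.7 and 14.6 TPM. Msl3, Msl1 and Ogt each overlapped the next in that order and are not told apart by their spread, while Hat1 did not overlap Wdr5, the next below it. Kat8, ninth in WT at 11.95 and 9.27 TPM, overlapped its neighbours Kansl2 and Kat5. The least abundant were Kat6a at 1.97 and 1.93 TPM, Kat6b at 1.35 and 1.31 TPM, Crebbp at 1.3 and 1.2 TPM and Jade2 at 1.16 and 0.83 TPM, and these 4 did not overlap one another. In PA the first 4 places were the same genes in the same order by mean TPM, while Hat1 moved from place 5 to place 8 and Kat6b from 32 to 34. The median TPM over members was 4.295 and 3.9 in WT and 2.785 and 4.225 in PA. TPM is a share of each library, so its level across libraries also moves with the mitochondrial transcripts.

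Ratios between related subunits within a library are free of that scale. The TPM of Kat6a exceeded that of Kat6b 1.46-fold and 1.47-fold in WT and 2.26-fold and 2.33-fold in PA. In both genotypes MOZ was the more abundant transcript, by a wider margin in PA. Jade1 exceeded Jade2 6.07-fold and 10.3-fold in WT and 3.73-fold and 2.65-fold in PA. The groups did not overlap in either pair, nor in Epc1 to Epc2 (1.25 and 1.13 in WT, 1.95 and 1.39 in PA), Brd1 to Brpf1 (1.78 and 1.52 in WT, 1.11 and 1.48 in PA) or Brd1 to Brpf3 (0.729 and 0.787 in WT, 0.613 and 0.703 in PA). From CPM in place of TPM the groups did not overlap in the first 4 of these pairs, and they overlapped for Brd1 to Brpf3 (1.10 and 1.23 in WT, 1.09 and 1.31 in PA). They overlapped on the TPM scale for Ep300 to Crebbp, Kat2b to Kat2a and Ing4 to Ing5. These 8 pairs were picked after the members' values were seen, so the ratios are a description. An exact permutation test on 2 against 2 could not go below p = 0.333.

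**Figure D4:**
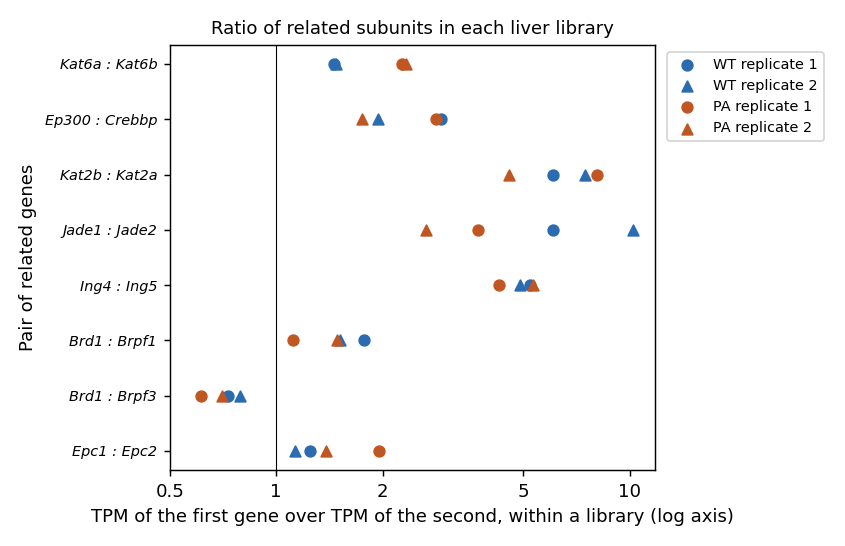
TPM of the first gene over TPM of the second within each library (x axis, log) for 8 pairs of related subunits (y axis; blue WT, orange PA, circles replicate 1, triangles replicate 2). Kat6a to Kat6b lies near 1.5 in both WT libraries and near 2.3 in both PA libraries, and Jade1 to Jade2 lies at 6.07 or above in WT and at 3.73 or below in PA.

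The other subunits of the same complexes, a list of 40 genes of which 39 were tested, lay closer to 0 than the members. Of the 39, 0 were called by edgeR, DESeq2 or limma-voom, 21 were below 0 and 18 above, and the median was -0.04. At an unadjusted p under 0.05 there were 2, or 5.13% against 11.8% of all genes. Epc2, the paralog of Epc1, was at 9.06 and 10.01 CPM in WT and at 6.36 and 6.23 CPM in PA (log2 fold change -0.60, edgeR adjusted p = 0.328). Tada2b, an adaptor of the SAGA complex of GCN5, was at 14.1 and 15.3 CPM in WT and at 21.6 and 20.8 CPM in PA (log2 fold change 0.53, edgeR adjusted p = 0.336). The next by p were Rbbp4, Vps72, Tada1 and Yeats4, with log2 fold changes of -0.41, -0.40, -0.36 and -0.35 and edgeR adjusted p of 0.5001, 0.537, 0.568 and 0.602. Groups did not overlap in 7 that were lower in PA, 17.9% against 21.9% of all genes, and in 5 that were higher, 12.8% against 21.3%. By complex, the 22 tested SAGA and ATAC subunits had a median of 0.01 and the 13 further TIP60 subunits one of -0.08. Whether the members differ from these subunits was not tested. Taf9, the untested gene, shares 73.8% of its exon bases with Ak6.

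The PA libraries differed from each other more than the WT libraries did. The absolute log2 difference between the 2 libraries of a group had a median over the tested members of 0.13 in WT and 0.22 in PA, and it was larger in PA for 22 of 33 members. Over all tested genes the medians were 0.22 and 0.34. Ogt, Kansl3, Kat2a, Hcfc1 and Taf1 were spread widely in PA, while Hat1, Jade2, Kat6b, Msl3 and Trrap lay close together there.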

How the data were processed

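Gene counts of 4 liver libraries, 2 WT and 2 PA, were used. The authors deposited raw read counts per gene in the layout of STAR, and RSEM tables that, per the file headers, hold expected counts, TPM and FPKM per gene (FPKM deposited by the authors was not used). The submitters' processing notes name STAR 2.7.6a, RSEM 1.3.3 and GRCm38; the annotation release is not given in the sources used here. The opposite-strand column held 97% of stranded counts in each library and was the main count. Lines that name no gene (29.6 and 31.1% of reads in WT, 34.3% in the first PA library and 28.1% in the second) were left out. Symbols and positions came from GENCODE M21 (55227 of 55487 identifiers matched).

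PA was set against WT in edgeR 4.0.16 by its quasi-likelihood test (R 4.3.3; TMM, filterByExpr, prior count 0.125, Benjamini-Hochberg over all tested genes, threshold 0.05, genotype as only term). Standard errors are the log2 fold change over the square root of F, and 95% intervals use the fitted degrees of freedom. CPM are on TMM-scaled library sizes. DESeq2 1.42.0 and limma 3.58.1 (voom) were alternatives, as were RSEM expected counts rounded to whole numbers, other scalings, no filter, each library left out, and a fit without mitochondrially encoded genes that was chosen after seeing the data. The steps were tested on simulated data whose changes were larger than that of any tested member. Detection of changes as small as the members' was not tested. Libraries of one group were no duplicates (chi-square per degree of freedom 46.3 in WT and 135 in PA). Members and lists were chosen with earlier results of these data known. Per-library values with log2 fold change and adjusted p were given for the 8 members of smallest p and the catalytic genes. Standard errors, intervals and unadjusted p were given for some of these only. The other subunits named were the 6 of smallest p, and Rbbp7 and Taf9 were added after their values were seen. The series' design text calls the replicates biological. The p-values of edgeR rest on the spread between these libraries, with each gene's spread drawn toward that of other genes. They do not measure the spread of 1 gene alone, and Msl3 and Trrap, whose libraries lay close together, had standard errors of 0.18 and 0.19. Floors cover counting error only.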

Additional observations from a re-analysis of the deposited data

How the results depend on the processing

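The number of genes called was 117. It was 442 with DESeq2, 902 with no filter on low counts, and 155 to 500 when each library was left out in turn, where the lone library of a group is assumed to vary like the other group. Members called numbered 0, and 1 (Hat1) with DESeq2 and with no filter. Members at an unadjusted p under 0.05 numbered 3, 5 with RSEM counts (Ing4 and Ing5 added) and 1 to 4 with a library left out. The median over members was -0.15, and -0.213 to -0.0430 with a library left out. With library size only, the log2 fold change was -0.0231 for Kat7 and -0.0243 for Crebbp. With a library left out it ran from -0.0413 to 0.0886 for Kat7, -0.17 to 0.20 for Crebbp, -0.52 to 0.14 for Kat2a, -0.28 to 0.0307 for Kat6a, -0.35 to 0.0515 for Kat8 and -0.27 to 0.0542 for Ep300. The cause was not tested. Nothing in the labels says that replicate numbers pair animals. With the number as a block 318 genes and 0 members were called, and deviations of same-numbered libraries correlated at -0.0907 across genes. Ing4 could be tested from RSEM counts and not from its 3 to 8 STAR counts a library. Among tested members Mcrs1 had the lowest mean CPM (4.47) with a standard error of 0.24 on the log2 scale, below that of Phf20 (0.28) or Ogt (0.27).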
